A study of Mus musculus with 8 samples.

Results

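The loci described here are those of 10 mouse genes that set the pace of entry into the cell cycle: the cyclin-dependent kinase inhibitors Cdkn1a, Cdkn1b, Cdkn2a, Cdkn2c and Cdkn2d, the D cyclins Ccnd1, Ccnd2 and Ccnd3, and their partner kinases Cdk4 and Cdk6. They are 10 of 21938 protein-coding genes in the GENCODE annotation of GRCm38 (mm10). A ChIP-Seq peak was counted at a gene when its centre lay in the gene body or within 20 kb of either end of it. Of 67673 peaks in the 4 lists, 122 lay at the 10 loci, and no peak was counted at more than 1 of them.

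The cells were X18.1.1, a murine acute myeloid leukaemia (AML) line of radiation-induced origin that has lost 1 copy of Pu.1 and carries a mutated copy of the other. They were transduced with an empty vector (called PU.1- here) or with PuER, a fusion of PU.1 to the oestrogen receptor ligand domain that 4-hydroxytamoxifen (OHT) activates (called PU.1+ here). Each was a clonal line, and both were given 100 nM OHT for 2 hours, so the drug and the background mutation are common to the groups. In the paper, the PU.1 antibody detected the mutant protein in both lines, and the fusion in PuER cells only. The paper also reports that mutant PU.1 still binds DNA, so PU.1- does not mean that PU.1 is absent. PU.1 and CEBPA were each immunoprecipitated in either line, giving 4 libraries, 1 for each antibody and line, so that clone, library and PuER cannot be told apart. There were no replicates, no test was made and no p-value is given. The lists hold peak positions only, every peak 400 bp wide, with no height or read number, so that depth is unknown and a gene without a listed peak is not shown to be unbound.

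D cyclins bind and activate Cdk4 and Cdk6, which phosphorylate the retinoblastoma protein and so release E2F factors that drive genes of DNA replication. Ink4 inhibitors (Cdkn2a, Cdkn2c, Cdkn2d) bind Cdk4 and Cdk6 alone, whereas Cip/Kip inhibitors (Cdkn1a, Cdkn1b) act on a wider range of cyclin-kinase complexes. PU.1, an ETS factor, and CEBPA, a basic leucine zipper factor, are master regulators of myeloid differentiation, which ends in exit from the cell cycle.

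PU.1 peaks were unevenly spread over the 10 loci. In PU.1+, 19 PU.1 peaks of the 15683 in the list lay there, and in PU.1-, 11 of 5288. Cdk6 held 9 and 5 of them respectively, Ccnd3 held 5 and 2, Ccnd2 held 2 and 1, Cdkn1b 2 and 0, Cdkn1a 1 and 2, and Cdk4 0 and 1. None lay at the 3 Ink4 genes or at Ccnd1 in either line. CEBPA peaks were at more of the genes, with 49 of 26119 listed for PU.1- and 43 of 20583 for PU.1+ at these genes. At least 1 lay at 9 of the 10 genes in each line, the exception being Ccnd1.

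**Figure D1:**
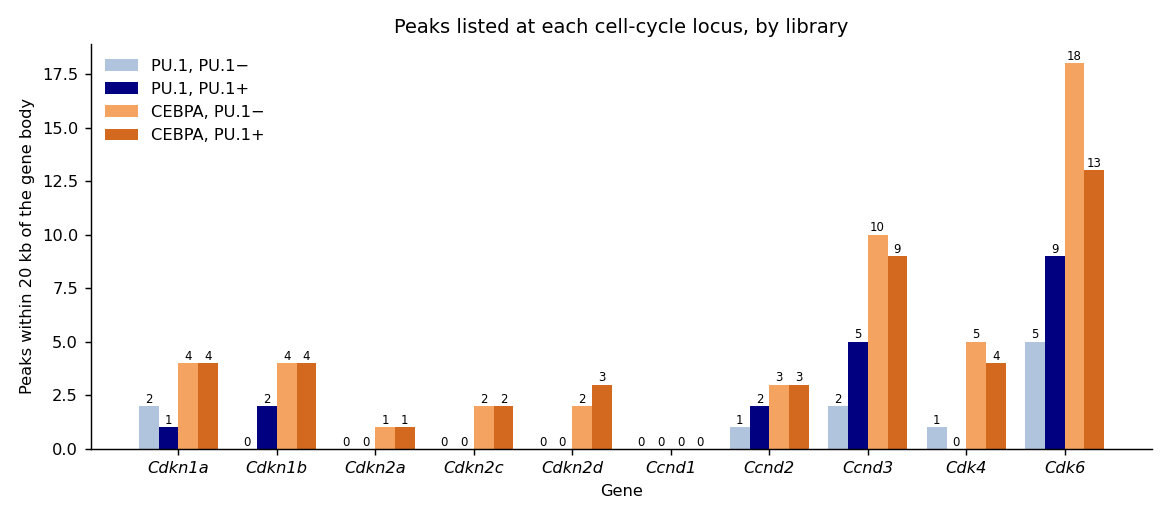
Number of listed peaks (vertical axis, count) at each gene (horizontal axis) in the 4 libraries, 1 bar a library with its count above it and no error bar because there is 1 library each. Cdk6 had the most in every library (5 and 9 for PU.1, 18 and 13 for CEBPA, in PU.1- and PU.1+ respectively) and Ccnd1 had 0 in all.

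The sequences that carry the results were read from the GRCm38 reference, plus strand, 5′ to 3′, and capitals mark a match on either strand to the ETS core GGAAGT (the letters ACTTCC where it lies on the minus strand) or to the CEBP site TTGCNNAA (whose reverse complement has the fixed letters GCAA at its end). The search found letters only, and the whole-library share of peaks holding each motif is given further on. The central 80 bp of PU.1 peaks of PU.1+ with a GGAAGT match are shown because PU.1 was called there with a core under the peak centre, beginning with the peak shared by both lines 20.5 kb downstream of the Cdkn1a start, chr17:29111453-29111532.
Cdkn1a shared: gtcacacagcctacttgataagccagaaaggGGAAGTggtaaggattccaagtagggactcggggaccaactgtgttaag
The peak called in PU.1+ and not in PU.1- at 12.9 kb from the Cdkn1b start, chr6:134933296-134933375, held the core in the plus orientation.
Cdkn1b PU.1+ only: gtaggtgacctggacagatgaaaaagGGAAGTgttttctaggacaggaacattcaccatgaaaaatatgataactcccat
The PU.1+ only peak in intron 5 of Cdk6, chr5:3491316-3491395, and the shared peak in the same intron, chr5:3502697-3502776, are the nearest to the Cdk6 start in their classes among peaks with GGAAGT in the central 80 bp.
Cdk6 PU.1+ only: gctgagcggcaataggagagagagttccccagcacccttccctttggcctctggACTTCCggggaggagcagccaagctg
Cdk6 shared: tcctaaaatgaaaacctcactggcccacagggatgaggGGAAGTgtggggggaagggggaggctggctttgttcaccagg
Sites where a PU.1 and a CEBPA peak overlapped in the same line are shown as 200 bp around the middle of the overlap, or as far as the overlap reaches, 1 for each gene that had any. They lie at chr17:29078951-29079150 upstream of Cdkn1a, at chr6:127165710-127165909 upstream of Ccnd2, at chr17:47508013-47508212 in intron 1 of Ccnd3, at chr10:127075163-127075362 downstream of Cdk4 and at chr5:3463358-3463557 in intron 4 of Cdk6. The Cdk6 stretch was placed by the PU.1 peak of PU.1+. The PU.1 peak of PU.1- that overlaps that peak starts at chr5:3463504 and covers only the end of the stretch. The marked CEBP site (chr5:3463479-3463486) lies outside the PU.1- peak.
Cdkn1a overlap, PU.1 called in PU.1-: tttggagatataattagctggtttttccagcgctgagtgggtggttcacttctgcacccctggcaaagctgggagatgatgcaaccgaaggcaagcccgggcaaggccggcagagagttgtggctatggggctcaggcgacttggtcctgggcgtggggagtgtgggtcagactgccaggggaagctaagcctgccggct
Ccnd2 overlap, PU.1 called in PU.1+: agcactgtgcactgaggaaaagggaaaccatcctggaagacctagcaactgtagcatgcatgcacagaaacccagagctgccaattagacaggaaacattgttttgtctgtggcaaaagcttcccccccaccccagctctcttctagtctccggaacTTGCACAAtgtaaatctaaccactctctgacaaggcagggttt
Ccnd3 overlap, PU.1 called in both lines: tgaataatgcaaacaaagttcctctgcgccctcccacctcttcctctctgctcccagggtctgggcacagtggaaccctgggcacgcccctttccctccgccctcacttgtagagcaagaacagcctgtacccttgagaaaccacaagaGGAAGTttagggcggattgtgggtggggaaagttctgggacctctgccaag
Cdk4 overlap, PU.1 called in PU.1-: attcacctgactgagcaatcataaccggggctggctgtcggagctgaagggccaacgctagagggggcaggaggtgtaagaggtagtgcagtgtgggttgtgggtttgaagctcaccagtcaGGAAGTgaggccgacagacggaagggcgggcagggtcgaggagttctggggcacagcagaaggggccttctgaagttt
Cdk6 overlap, PU.1 called in both lines: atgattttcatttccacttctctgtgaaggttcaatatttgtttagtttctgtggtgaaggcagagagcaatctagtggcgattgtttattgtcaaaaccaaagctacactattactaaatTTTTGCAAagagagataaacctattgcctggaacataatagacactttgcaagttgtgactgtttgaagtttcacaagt
A further stretch of Ccnd3 intron 1, the central 80 bp of a CEBPA peak of PU.1+ at chr17:47517091-47517170, was chosen after its values were seen because both kinds of site are in it.
Ccnd3 CEBPA peak joined by PU.1 in PU.1+: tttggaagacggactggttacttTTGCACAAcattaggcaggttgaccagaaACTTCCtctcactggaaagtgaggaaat

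Of the Cip/Kip inhibitors, Cdkn1a held PU.1 peaks in both lines and Cdkn1b in PU.1+ alone. At Cdkn1a (9752 bp, chr17:29090976-29100727, plus strand), which encodes an inhibitor known as a target of p53, the PU.1 list of PU.1- had 2 peaks and that of PU.1+ had 1. The peak at 20.5 kb from the gene start was in both lists with its centre moved by 2 bp, and the GGAAGT core lay in its central 80 bp in each. That peak is nearer to the start of the neighbouring gene Rab44 (2652 bp away) than to that of Cdkn1a. The other, at -11.9 kb (chr17:29078856-29079255), was listed in PU.1- alone, on a CEBPA peak that was called in both lines, and the 200 bp printed for it hold neither GGAAGT nor TTGCNNAA.

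CEBPA occupied the same 4 positions of Cdkn1a in both lines, at -11.9 kb, in intron 1 at 4.4 to 4.5 kb, at 20.6 kb and at 23.2 kb, with centres moved by 5 to 75 bp between the lines. The peaks at 20.6 kb and 23.2 kb were nearer to the start of Rab44 than to that of Cdkn1a. At 23.2 kb the centre was 17 bp from the Rab44 start in PU.1- and 1 bp in PU.1+. That peak held a CEBP site, shown with 30 bases at chr17:29114112-29114141.
Cdkn1a CEBPA at 23.2 kb: gaaaggggcgaTTGGGCAAgagacaagact

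At Cdkn1b (5113 bp, chr6:134920401-134925513, plus strand), whose protein holds cells in quiescence, no PU.1 peak was listed in PU.1-, where the nearest lay 90.2 kb from the gene, and 2 were listed in PU.1+. The first, at 2.5 kb (chr6:134922742-134923141), lay within the gene, in intron 2 of the principal transcript and in an untranslated exon of another. The second, at 12.9 kb, lay beyond the gene and held the GGAAGT core printed above. Neither overlapped a CEBPA peak: the nearest CEBPA peak of PU.1+ was centred 1.47 kb and 4.99 kb away.

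Cdkn1b was the only member whose PU.1 peaks were all of the class called in PU.1+ alone. Its CEBPA peaks did not follow this split, since the same 4 were called in both lines, at 0.1 kb over the first exon, at 4.0 kb, at 7.0 kb and at 7.9 kb, with shifts of 2 to 18 bp. CEBP sites lay at the centre of the first and second of these. The site over the first exon (chr6:134920436-134920465) is in the 5′ untranslated region, and the site at 4.0 kb (chr6:134924428-134924457) is a palindrome and so matches on either strand.
Cdkn1b CEBPA at 0.1 kb: ccaccgccataTTGGGCAActaaaaaagga
Cdkn1b CEBPA at 4.0 kb: tggatgtagcaTTGCGCAAttaggttgttc

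The Ink4 inhibitors had CEBPA peaks and no PU.1 peak. Cdkn2a (20183 bp, chr4:89274471-89294653, minus strand), which encodes an Ink4 protein and, from another reading frame, the p53 activator Arf, had 1 CEBPA peak, in intron 2 at 18.3 kb from its start, in both lines and centred 9 bp apart. Cdkn2c (6314 bp, chr4:109660876-109667189, minus strand) had 2, both shared: 1 over coding sequence at 2.1 kb and 1 at -9.5 kb, in the neighbouring gene Faf1. Cdkn2d (2998 bp, chr9:21288410-21291407, minus strand) had 2 in PU.1- and 3 in PU.1+. The additional peak, at -13.0 kb (chr9:21304242-21304641), lay in Ap1m2 and is 1 of only 2 CEBPA peaks at the 10 loci that were called in PU.1+ alone. All of the Cdkn2d peaks were nearer to the start of another gene, Kri1 or Ap1m2, than to that of Cdkn2d.

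The 3 CEBP sites at these genes read as follows, at chr4:89276314-89276343, chr4:109665056-109665085 and chr9:21304428-21304457.
Cdkn2a CEBPA: tacaaatctgcTTACGCAAgagctgaaggg
Cdkn2c CEBPA: cgtttacattaTTTTGCAAcaaactagtaa
Cdkn2d CEBPA, PU.1+ only: gcttcatgttgTTGTGCAAggactttactg
The nearest PU.1 peaks of PU.1+ lay 56.8 kb from Cdkn2a, 21.4 kb from Cdkn2c and 25.5 kb from Cdkn2d. In PU.1- these distances were 74.7 kb, 324 kb and 56.9 kb. The Cdkn2c peak at 21.4 kb is the nearest of any to fall just outside the 20 kb limit, whereas the outermost peaks just inside it were CEBPA peaks at 15.5 kb from Ccnd2 and 16.7 kb from Cdkn2d.

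**Figure D2:**
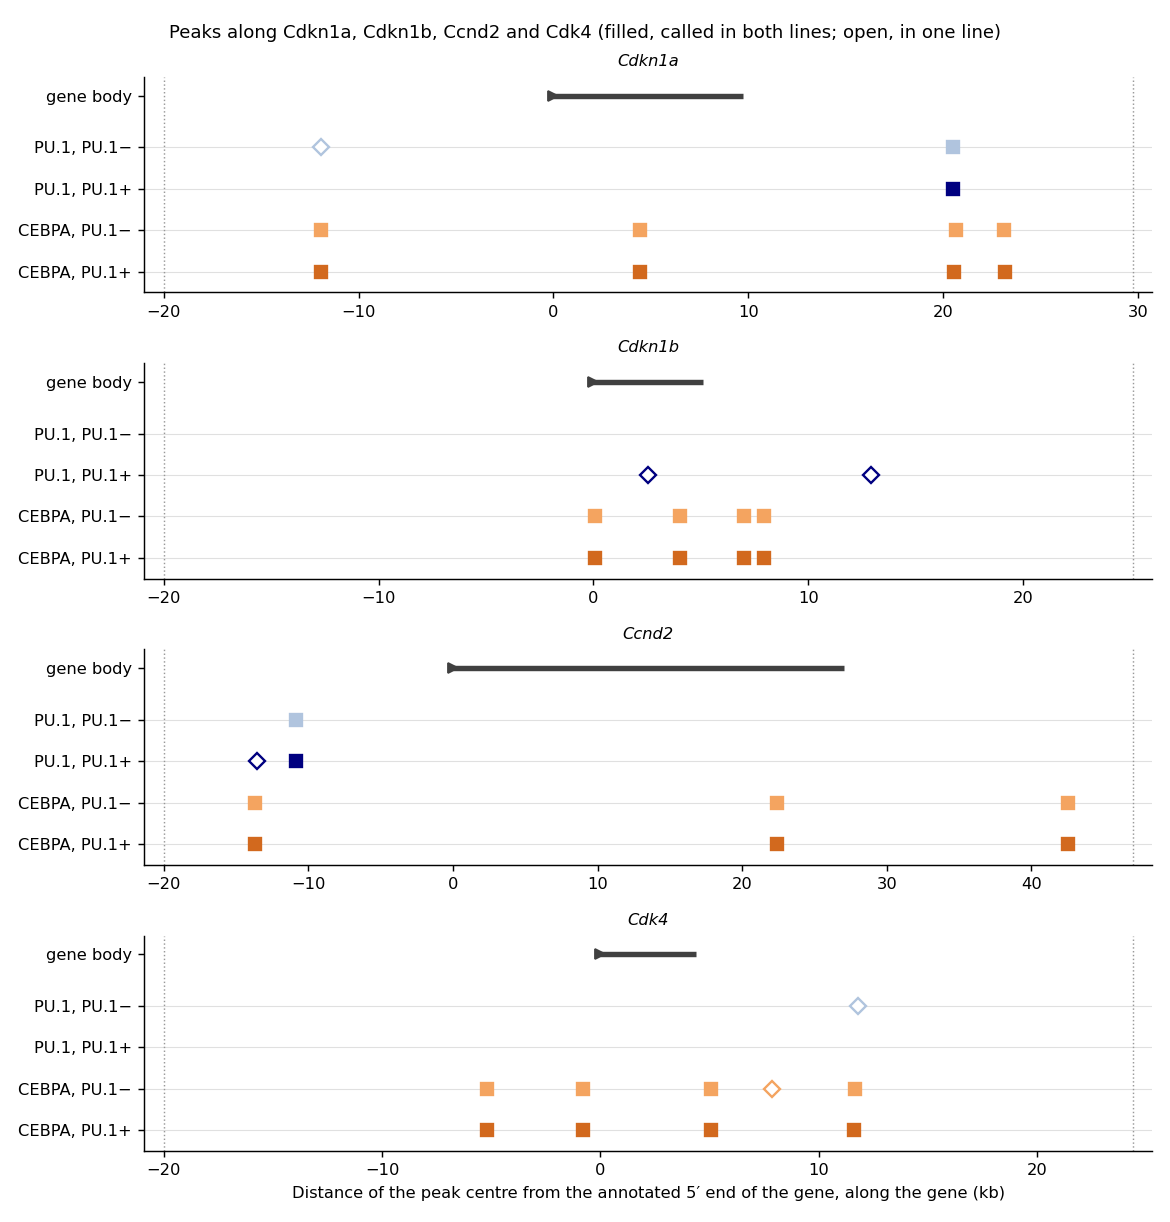
Peak centres (marks) of the 4 libraries (rows) along Cdkn1a, Cdkn1b, Ccnd2 and Cdk4, against distance from the annotated 5′ end of each gene (kb, in the direction of transcription), with dotted lines at the 20 kb limits. Filled squares overlap a peak of the other line and open diamonds do not. PU.1 marks are open and in PU.1+ alone at Cdkn1b (2.5 and 12.9 kb), and open and in PU.1- alone at Cdk4 (11.8 kb), whereas all CEBPA marks but 1, at 7.9 kb in Cdk4, are filled.

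The D cyclins ranged from no peak to many. Ccnd1 (9995 bp, chr7:144929931-144939925, minus strand) had no peak of either factor in either line. Its nearest PU.1 peak was 171 kb away in PU.1+ and 393 kb away in PU.1-, and its nearest CEBPA peak was 276 kb away in both.

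Ccnd2 (27032 bp, chr6:127125162-127152193, minus strand) had a PU.1 peak in both lines at -10.8 kb, centred 16 bp apart, where no CEBPA peak lay. A second PU.1 peak was listed in PU.1+ alone, at -13.6 kb (chr6:127165571-127165970). That peak overlapped by 321 bp a CEBPA peak which was present in both lines and moved by 1 bp between them, and the printed overlap has a CEBP site and no GGAAGT. The other CEBPA peaks of Ccnd2, at 22.4 kb within an untranslated exon and at 42.5 to 42.6 kb near Tigar, were likewise shared.

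Ccnd3 (94641 bp, chr17:47505051-47599691, plus strand), a D cyclin that is prominent in blood cells, had 2 PU.1 peaks with the empty vector and 5 with PuER. Both peaks of PU.1- were also listed in PU.1+. They lay in intron 1 at 3.0 to 3.1 kb, with centres 77 bp apart, and at 90.6 kb, with centres 28 bp apart, in intron 4 of the principal transcript. Each overlapped a CEBPA peak in both lines. At 3.1 kb the overlap printed above holds GAGGAAGT, the longer form of the core that PU.1 favours, and next to it a RUNX site (TGTGGT or TGCGGT on either strand, not capitalised).

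Of the 3 PU.1 peaks of Ccnd3 called in PU.1+ alone, 2 were in intron 1, at 12.1 kb (chr17:47516987-47517386) and 18.6 kb (chr17:47523423-47523822). Both overlapped CEBPA peaks that were listed in both lines. At 18.6 kb the overlap with the CEBPA peak of PU.1+ was 211 bp, and the centres were 189 bp apart. At 12.1 kb the centres of the PU.1 peak and of the CEBPA peak of PU.1+ were 56 bp apart, and 21 bases separated the CEBP site (chr17:47517114-47517121) from the minus-strand core (chr17:47517143-47517148). The third, at 95.1 kb (chr17:47599972-47600371), lay past the end of Ccnd3 within Bysl and 4.5 kb from the nearest CEBPA peak of PU.1+. It held a GGAAGT core, but its central 80 bp are not printed because they overlap an untranslated region. The stretches of 30 bases around CEBP sites were printed even where they lay in such a region.

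CEBPA had 10 peaks at Ccnd3 with the empty vector and 9 with PuER. The 9 of PU.1+ were all shared, and the peak missing from the PU.1+ list was at 91.9 kb (chr17:47596705-47597104). The 9 were spread from -2.8 kb, in Taf8, through positions in intron 1 at 3.1, 6.2, 12.1, 18.4, 37.2 and 38.5 kb, to 88.4 and 90.6 kb. In PU.1+ the centres at 88.4 and 90.6 kb were 1 bp and 400 bp from an annotated start of a Ccnd3 transcript. The PU.1- peak at 91.9 kb was 259 bp from such a start. The site at 38.5 kb (chr17:47543526-47543555) is the other CEBP match at a peak centre of Ccnd3 in PU.1+.
Ccnd3 CEBPA at 38.5 kb: ttagagagacaTTGCTCAActcggggcagc

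Cdk4 and Cdk6, which both pair with D cyclins, differed in their PU.1 calls. Cdk4 (4387 bp, chr10:127063534-127067920, plus strand) had a single PU.1 peak, in PU.1- only, at 11.8 kb (chr10:127075131-127075530), 47 bp from the start of the neighbouring gene Agap2. It lay on a CEBPA peak called in both lines. In PU.1+ the nearest PU.1 peak was 35.9 kb away. Of 5 CEBPA peaks in PU.1-, 4 were shared, at -5.2 kb in March9, at -0.8 kb before the Cdk4 start, at 5.0 to 5.1 kb in Tspan31 and at 11.6 to 11.7 kb, and 1, at 7.9 kb, was in PU.1- alone. The CEBP sites at -0.8 kb and 5.0 kb are at chr10:127062721-127062750 and chr10:127068563-127068592.
Cdk4 CEBPA at -0.8 kb: ctgtcatctgtTTATGCAAtcacatatata
Cdk4 CEBPA at 5.0 kb: gccgggtactgTTGCTCAAgaccgaccacg

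Cdk6 (189524 bp, chr5:3341485-3531008, plus strand) had the most peaks of both factors. All of its PU.1 peaks were intronic. Of 5 in PU.1-, 3 were shared, at 121.9 to 122.2 kb in intron 4, at 156.3 kb in intron 5 and at 161.2 to 161.3 kb in intron 5. The peaks in PU.1- alone were at 17.4 kb in intron 2 and at 175.5 kb in intron 6.

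In PU.1+, 6 further PU.1 peaks were listed at Cdk6, and they came in groups. There were 2 in intron 2, at 26969 and 27671 bp, then 1 in intron 4 at 120.2 kb, close to the shared peak there, and 3 in intron 5 at 149.0, 149.9 and 153.1 kb. None of the 6 overlapped a CEBPA peak of either line, although all lay within 2.55 kb of a CEBPA peak centre in PU.1+, the closest being 0.598 kb away. Only 1 of the 6, that at 149.9 kb, had GGAAGT in its central 80 bp.

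CEBPA had 18 listed peaks at Cdk6 with the empty vector and 13 with PuER. Of the 18, 12 were shared and 6 were in PU.1- alone, at 25.1, 48.5, 123.3, 138.1, 156.4 and 162.8 kb, and 1 peak, at 40.5 kb, was in PU.1+ alone. The call at 156.4 kb (chr5:3497640-3498039) was the only position at the 10 loci where PU.1 was called in both lines and CEBPA in PU.1- only. The nearest CEBPA peak of PU.1+ to that PU.1 peak was 4.59 kb away. At the remaining shared PU.1 peaks, CEBPA overlapped in both lines, by 275 bp at 121.9 kb and by just 5 bp at 161.3 kb in PU.1+.

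Of the CEBP sites at Cdk6 peak centres in PU.1+, those at 16.2 kb (chr5:3357724-3357753) and 28.3 kb (chr5:3369767-3369796) in intron 2 are printed. Those at 160.9 kb in intron 5 are a repeated pair, and the first is at chr5:3502322-3502351.
Cdk6 CEBPA at 16.2 kb: cggagagacgaTTGTGCAAgtggttgagaa
Cdk6 CEBPA at 28.3 kb: cttgtaaaatgTTGCGTAAcattttttgca
Cdk6 CEBPA at 160.9 kb: agtcaagaaggTTAGGCAAgcatgagaatt

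**Figure D3:**
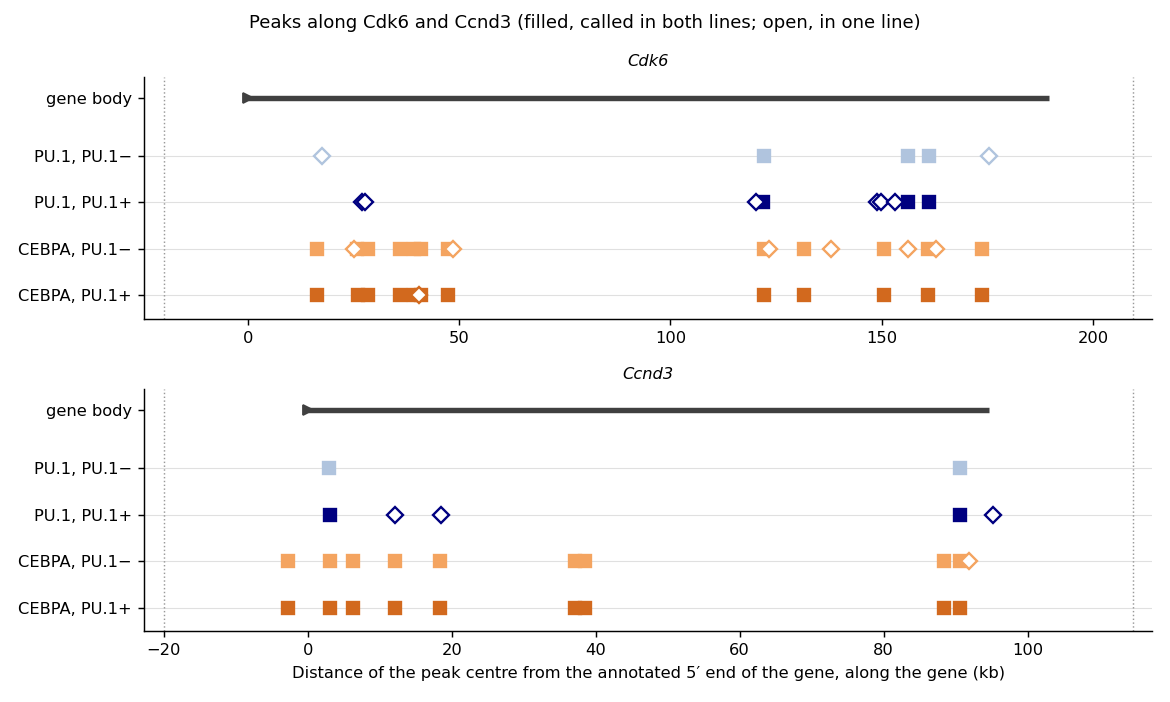
Peak centres (marks) of the 4 libraries (rows) along Cdk6 (top) and Ccnd3 (bottom), against distance from the annotated 5′ end of the gene (kb, in the direction of transcription), with dotted lines at the 20 kb limits. Filled squares overlap a peak of the other line and open diamonds do not. The 6 open PU.1 marks of PU.1+ at Cdk6 lie between 26969 bp and 153.1 kb, and the 2 open marks in intron 1 of Ccnd3, at 12.1 and 18.6 kb, stand above filled CEBPA marks.

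Numbers of genes with a peak were next read against all protein-coding genes. A PU.1 peak was present in PU.1- at 5 of the 10 members, against 23.7% of coding genes, and in PU.1+ at 5 of 10, against 41.4%. A peak of this antibody unique to the PuER line was present at 4 of 10 (Cdkn1b, Ccnd2, Ccnd3 and Cdk6), against 36.7%, which is a share near the background. A shared PU.1 peak was present at 4 of 10 against 13.4%, and one called only in PU.1- at 3 of 10 against 13.7%. For CEBPA, 9 of 10 members had a peak in PU.1-, against 56.5%, and 9 of 10 in PU.1+, against 51.3%. Shared CEBPA peaks were at 9 of 10 (48.3% of coding genes), those in PU.1- only at 3 of 10 (30.1%) and those in PU.1+ only at 2 of 10 (11.4%).

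Length bears on such counts, because a long gene has more room for peaks. The windows of the 10 genes ran from 42998 bp at Cdkn2d to 229524 bp at Cdk6. Per 100 kb, the joined windows of the 10 members, 0.77 Mb in all, held 1.43 PU.1 peaks with the empty vector and 2.47 with PuER, against 0.302 and 0.847 in the joined windows of all coding genes. The CEBPA values were 6.36 and 5.58 against 1.45 and 1.14. Cdk6 itself had 2.18 and 3.92 PU.1 peaks per 100 kb, and 7.84 and 5.66 CEBPA peaks. Cdkn1b, with its short window, had 4.43 PU.1 peaks per 100 kb in PU.1+, more than Cdk6, and Ccnd3 had 3.71. In PU.1-, Cdkn1a (4.02) and Cdk4 (2.25) exceeded Cdk6 for PU.1. CEBPA values exceeded those of Cdk6 in both lines at Cdk4 (11.3 in PU.1- and 9.01 in PU.1+), Cdkn1b (8.87 in each) and Cdkn1a (8.04 in each). In PU.1+ they did so also at Cdkn2d (6.98) and Ccnd3 (6.68). They were lower in both lines at Cdkn2a, Cdkn2c, Ccnd1 and Ccnd2.

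At least 9 PU.1 peaks in PU.1+, the number at Cdk6, were found at 98 coding genes (0.447%), and at least 5, the number at Ccnd3, at 595 (2.71%). For CEBPA in PU.1-, 29 coding genes (0.132%) had at least the 18 peaks of Cdk6, and 240 (1.09%) at least the 10 of Ccnd3. These ranks take no account of gene length.

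**Figure D4:**
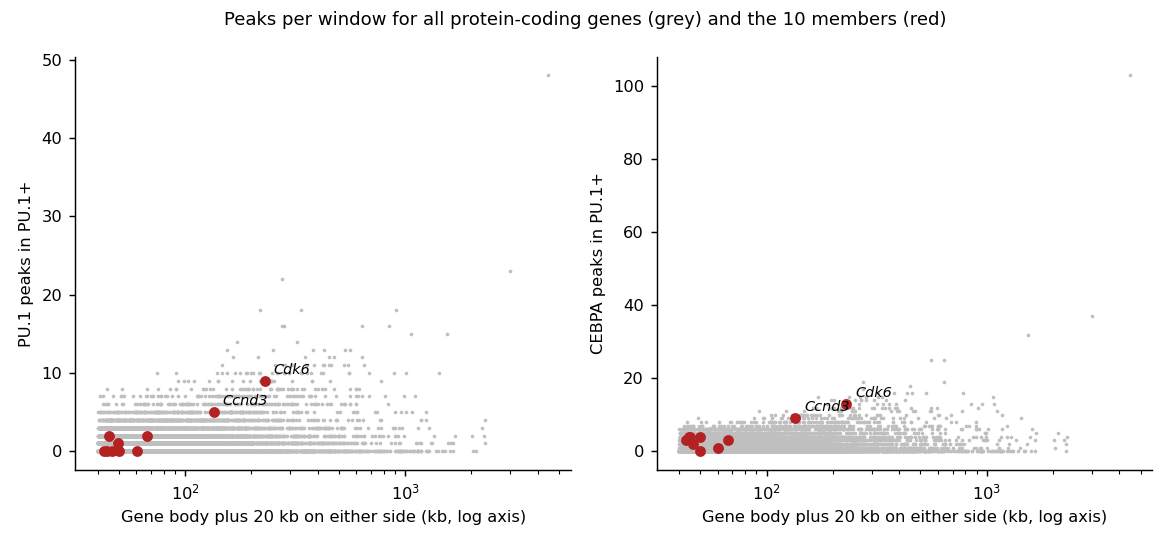
Number of PU.1 peaks (left) and CEBPA peaks (right) in PU.1+ (vertical axes, count) against the length of the gene body plus 20 kb on either side (kb, log axis), for 21938 protein-coding genes (grey points) and the 10 members (red points, Cdk6 and Ccnd3 named). Cdk6 has 9 and 13 peaks and Ccnd3 has 5 and 9, the other members have at most 2 and 4, and genes with more peaks than Cdk6 are seen in both panels.

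Peaks at the 10 loci were divided by whether they overlapped, by at least 1 bp, a peak of the same antibody in the other line. Of the 19 PU.1 peaks of PU.1+, 12 were in that line alone, which is 63.2% (95% exact binomial interval 38.4 to 83.7, for counting error only), against 81.1% of the whole list. Of the 11 of PU.1-, 4 were in that line alone (36.4%, 10.9 to 69.2), against 43.8%. For CEBPA, 8 of 49 were in PU.1- alone (16.3%, 7.32 to 29.7), against 30.7% of the list, and 2 of 43 in PU.1+ alone (4.65%, 0.568 to 15.8), against 12.1%. The intervals take peaks as independent, although 27 of the 63 sites described next are at Cdk6.

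When overlapping peaks of any library were joined, the 122 peaks formed 63 sites. Of these, 31 had CEBPA in both lines and no PU.1. A further 9 had PU.1 in PU.1+ only and no CEBPA, at Cdk6 (6), Cdkn1b (2) and Ccnd3 (1), and 3 had PU.1 in PU.1+ only on CEBPA of both lines, at Ccnd3 (2) and Ccnd2 (1). There were 5 sites with both factors in both lines, 7 with CEBPA in PU.1- only and no PU.1, 2 with CEBPA in PU.1+ only, 2 with PU.1 in PU.1- only on CEBPA of both lines, and 2 with PU.1 in PU.1- only and no CEBPA. PU.1 was called in both lines at 1 site without CEBPA, at Ccnd2, and at 1 site with CEBPA in PU.1- only, at Cdk6. Neither of the 2 CEBPA peaks in PU.1+ alone overlapped a PU.1 peak of that line (0%, interval 0 to 84.2), against 42.6% of the 2484 such peaks in the list, and with 2 peaks nothing can be read from this.

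In the same line, 8 of the 19 PU.1 peaks of PU.1+ overlapped a CEBPA peak (42.1%, 20.3 to 66.5), against 29.8% of all PU.1 peaks in that list, and 8 of the 11 of PU.1- (72.7%, 39.0 to 94.0), against 57.6%. Among PU.1 peaks of PU.1+, overlap was 5 of 7 for the shared class, against 58.2% in the list, and 3 of 12 for the class in PU.1+ alone (25.0%, 5.49 to 57.2), against 23.2%. The 9 peaks of this class without overlap were centred 0.598 to 4.99 kb from the nearest CEBPA peak of PU.1+, with a median of 1.55 kb.

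Sequence motifs in the central 80 bp were counted with the same search over the whole list. GGAAGT lay in 7 of the 19 PU.1 peaks of PU.1+ (36.8%, against 43.5% of the list) and in 2 of the 11 of PU.1- (18.2%, against 36.5%). In the class in PU.1+ alone it was 3 of 12 (25.0%, against 42.9%), but 6 of 12 in the central 200 bp (50.0%, against 57.2%) and 8 of 12 in the whole peak (66.7%, against 63.5%). The longer GAGGAAGT, which contains GGAAGT, was in 1 of 19 (5.26%, against 15.2%), at 3.1 kb in Ccnd3. In the central 200 bp it was in 3 of 19 (15.8%, against 20.2%), also at 12.1 kb in Ccnd3 and at 161.3 kb in Cdk6. TTGCNNAA lay in 18 of the 49 CEBPA peaks of PU.1- (36.7%, against 35.6%) and in 14 of the 43 of PU.1+ (32.6%, against 38.2%). RUNX letters lay in 5 of the 19 PU.1 peaks of PU.1+ (26.3%, against 11.5%), 4 of them among the 7 shared peaks (against 16.9% of that class), at Ccnd3 (3.1 and 90.6 kb) and Cdk6 (121.9 and 156.3 kb). In the whole peak the order turned, with 6 of 19 (31.6%) against 39.7% of the list. These shares rest on few peaks and were not tested.

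Of the 122 member peaks, 81 had their centre in the member's gene body, 63 of them in an intron. Within 1000 bp of the start of any protein-coding transcript lay 28 (23.0%, against 16.8% of all peaks in the 4 lists), 13 of them at a start of the member itself. For PU.1 these were 2 of 11 in PU.1- (18.2%, against 26.6%) and 1 of 19 in PU.1+ (5.26%, against 12.0%), and for CEBPA 13 of 49 (26.5%, against 17.1%) and 12 of 43 (27.9%, against 17.5%). The nearest protein-coding start belonged to a member for 94 and to another gene for 28, of which 12 were CEBPA peaks of PU.1- and 12 CEBPA peaks of PU.1+. The centres of the 7 shared PU.1 peaks were 2 to 308 bp apart between the lines, with a median of 52 bp, and those of the 41 shared CEBPA peaks 0 to 202 bp apart, with a median of 13 bp. Since shared peaks must overlap, these distances could not reach the peak width of 400 bp. The greatest was at 121.9 to 122.2 kb in Cdk6, where the PU.1 peaks of the lines overlapped by 92 bp.

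The same count was made for 33 other genes of the cell cycle. Of these, 7 had a PU.1 peak with the empty vector (against 23.7% of coding genes) and 19 with PuER (against 41.4%), and 18 had one called in PU.1+ alone (against 36.7%), 4 a shared one (13.4%) and 4 one in PU.1- alone (13.7%). A CEBPA peak was at 20 in PU.1- (56.5%) and at 19 in PU.1+ (51.3%), shared at 18 (48.3%), in PU.1- alone at 11 (30.1%) and in PU.1+ alone at 7 (11.4%). The most PU.1 peaks in PU.1+ alone were at Rb1, the retinoblastoma gene and target of Cdk4 and Cdk6, with 4, and at its relative Rbl1, with 3. Cks1b, E2f3 and Myc followed with 2 each. By role, and beside the same 36.7% of coding genes, 8 of the 13 pocket protein and E2F genes had such a peak, as did 3 of 10 other cyclins and kinases, 4 of 5 phosphatase and ubiquitin ligase genes, 2 of 3 upstream regulators (Myc and Mdm2, and not Trp53) and 1 of 2 remaining inhibitors (Cdkn1c, and not Cdkn2b). Cdk2, another cyclin-dependent kinase, had 2 PU.1 and 2 CEBPA peaks in PU.1- and none in PU.1+.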

How the data were processed

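The authors aligned reads to the mouse genome and called peaks, and the deposited tables hold the coordinate of each peak (chromosome, start, end) with no score, count or ratio. The submitters' processing notes name Bowtie2 2.0.6, MACS2 2.0.10 and the build mm10 (GRCm38). Every peak is 400 bp wide. H3K27Ac and IgG libraries of both lines are not analysed here, so that 4 of 8 libraries were used.

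Peaks were assigned to genes of GENCODE release M21 by their centre, within the gene body or 20 kb of it. Peaks of an antibody sharing at least 1 bp between lines were called shared, and those of PU.1 and CEBPA sharing at least 1 bp were called overlapping. Motifs were searched on both strands of the central 80 bp of RefSeq GRCm38.p6. Intervals are exact binomial at 95%. Classes and motif matches were tested on simulated peaks. Python 3.11.15, numpy 2.4.6, scipy 1.17.1 and matplotlib 3.10.9 were used. The members and gene lists were chosen with earlier results of these data known. All members are named, and other cell-cycle genes are named where among the 3 with most PU.1 peaks in PU.1+ alone (ties included) and otherwise only as exceptions in a small group. Printed PU.1 peaks with GGAAGT are those nearest to each gene start in their class, and overlap sites are at most 1 for each gene. The printed CEBP sites did not follow this limit, and more than 1 is given for Cdkn1b, Cdk4 and Cdk6. Cdk2 and the exceptions were named after their values were seen.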

Additional observations from a re-analysis of the deposited data

How the results depend on the processing

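The counts were repeated with the gene body alone, with limits of 10 kb and 50 kb, with peaks whose nearest coding start is a member's, with stricter overlap rules and with wider motif windows. Of 75 such values, 58 were within 1.5 times the reported one and 17 were not. With the gene body alone, PU.1 peaks of PU.1- numbered 7, of which 2 were in that line alone, CEBPA peaks of PU.1+ numbered 27, shared CEBPA peaks 26 and CEBPA peaks in PU.1+ alone 1, and a PU.1 peak in PU.1+ alone was at 18.2% of coding genes, with 3 members. At 10 kb, CEBPA in PU.1+ alone was 1. At 50 kb, PU.1 peaks in PU.1+ alone numbered 19, at 8 of the 10 members, against 52.7% of coding genes, and CEBPA peaks in PU.1- alone numbered 15. Keeping peaks nearest to a member's start left 2 PU.1 peaks in PU.1- alone and 1 CEBPA peak in PU.1+ alone. With centres within 100 bp counted as overlap, PU.1 peaks on CEBPA numbered 4 of 11 in PU.1- and 5 of 19 in PU.1+. No share of the whole list by that rule is given, so these counts cannot be set against the list. GGAAGT in PU.1 peaks of PU.1- was in 5 of 11 in the central 200 bp (45.5%, against 53.7% of the list) and 7 of 11 in the whole peak (63.6%, against 62.3%), and in PU.1+ in 12 of 19 in the whole peak (63.2%, against 64.5%). Wider windows or limits hold more sequence by construction; for the other changes the cause was not tested. No paired analysis was possible because each antibody had 1 library in each line and no test was made. Without read numbers, a peak just under the caller's threshold cannot be told from no binding.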

Other observations

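Of the 12 PU.1 peaks at the 10 loci that were called in PU.1+ alone, 6 held a CEBP match (TTGCNNAA) somewhere in their 400 bp (50.0%, 95% exact binomial interval 21.1 to 78.9), against 23.5% of all PU.1 peaks of that class, and only 1 of the 7 shared PU.1 peaks of PU.1+ did (14.3%, against 31.0%). In the central 80 bp the PU.1+ only share was 2 of 12 (16.7%, against 6.33%), and in the central 200 bp 3 of 12 (25.0%, against 15.1%). Among the 8 CEBPA peaks called in PU.1- alone, 7 held the match in the whole peak (87.5%, 47.3 to 99.7), against 44.6% of that class, but 3 of 8 in the central 80 bp (37.5%, against 28.3%) and 4 of 8 in the central 200 bp (50.0%, against 38.6%). These shares were picked out after their values were seen, rest on few peaks, 6 of the 12 and 6 of the 8 being at Cdk6, and were not tested.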
